A study of Homo sapiens with 2 samples.

Results

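Interferon-stimulated genes are the genes that cells switch on when an interferon reaches its receptor, and 43 of them were followed here in RNA-seq libraries of Cal-27, an established human line that came from a tongue carcinoma of squamous type. The 43 genes were chosen by name, from sensors of viral RNA to the proteins that block virus entry and assembly, and all 43 were found among the 20263 genes of the deposited tables. The study compared Cal-27 cells with a stably transduced shRNA that targets the nuclear kinase HIPK2 (construct GV-248-HIPK2-sh) with Cal-27 cells carrying a scrambled control shRNA (sh-scramble). Both cultures were grown in regular medium with serum, and the labels name no added interferon or virus. The sources used here do not say whether either line is a single clone or how many shRNA sequences were used.

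Each group held 1 library, with a total of 26450251 counts in the library labelled HIPK2 shRNA and 28064923 counts in the scramble library. There is therefore no replicate check and no p-value, and differences are between libraries, which need not be differences between conditions. Levels are given as CPM (each gene's share of the library's counts, scaled between the libraries with TMM factors), and levels of different genes are compared only in the authors' TPM, which is per transcript length. Genes that reached 1 CPM in either library are called expressed. Log2 ratios divide CPM + 1 of the library labelled HIPK2 shRNA by CPM + 1 of the scramble library, a pseudocount that shrinks the ratios of low genes. Ratios without that pseudocount carry 95% exact intervals that cover counting error only.

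HIPK2 itself did not show a uniform decrease. It had 218 counts in the library labelled HIPK2 shRNA and 110 counts in the scramble library, but 0.873 TPM under the HIPK2 shRNA label and 1.63 TPM under the scramble label in the authors' own values. The transcript length implied by its count and FPKM was 4.01 times as long in the library labelled HIPK2 shRNA, relative to the median gene. The counts thus go against the label and the TPM goes with it.

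In cells that have met interferon, receptor-bound JAK kinases phosphorylate STAT proteins. The complex ISGF3, which holds STAT2 and IRF9, then binds the interferon-stimulated response element (ISRE) in front of most of these genes, whereas STAT dimers bind the gamma-activated site (GAS). IRF family factors read ISRE letters too and can keep some of these genes on without interferon. Many epithelial tumour lines hold a basal level of such genes, and the levels below come from cells for which the labels name no added interferon.

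The ISRE letters were looked for in RefSeq promoter windows (build GRCh38.p14, 250 bases before to 50 bases after each listed start), which matched 35 of the 43 genes. IRF7, IFIT2, IFITM2, MX2, OAS2, OASL, TRIM22 and USP18 had no entry. The letters searched were GAAA, any 2 bases and GAAA again for the ISRE, and TTC, any 3 bases and GAA for the GAS, on both strands. CMPK2 and SP110 were past 1.5-fold but had no ISRE match in their windows, so no sequence of theirs is printed. The sequences that follow are those of members with ISRE letters that stand out by ratio (BST2, IFIT1, IFI44 and HERC5) or by level (IFITM3, ISG15 and LGALS3BP). They are written 5′ to 3′ on the strand of the gene, with ISRE letters of either orientation in capitals.
BST2: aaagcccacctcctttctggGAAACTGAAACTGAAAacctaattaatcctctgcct
IFIT1: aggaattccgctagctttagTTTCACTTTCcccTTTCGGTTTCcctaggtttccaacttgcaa
IFI44: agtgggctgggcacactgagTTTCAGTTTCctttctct
HERC5: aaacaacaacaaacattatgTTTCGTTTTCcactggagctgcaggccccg
IFITM3: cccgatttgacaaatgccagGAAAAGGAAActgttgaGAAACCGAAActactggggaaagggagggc
ISG15: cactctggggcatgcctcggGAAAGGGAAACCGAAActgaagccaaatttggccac
LGALS3BP: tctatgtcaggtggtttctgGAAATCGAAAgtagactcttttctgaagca

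These stretches lie at chr19:17405725-17405780 (minus strand) for BST2, chr10:89392487-89392549 (plus) for IFIT1, chr1:78649751-78649788 (plus) for IFI44 and chr4:88457025-88457074 (plus) for HERC5. Those of the abundant members lie at chr11:320866-320932 (minus) for IFITM3, chr1:1013364-1013419 (plus) for ISG15 and chr17:78979952-78980001 (minus) for LGALS3BP. In BST2 and ISG15 a pair of matches overlaps, so the capitals run on without a break. The BST2 stretch runs from base -150 to base -95 before its listed start, and that of ISG15 from base -133 to base -78.

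ISRE letters were present in the windows of 24 of the 35 matched genes (68.6%), against 4.38% of all 27305 genes in the RefSeq table. GAS letters were present in 12 of the 35 (34.3%), against 9.38% of all genes. Of the matched members, 7 held both, and in 5 of these (IFITM1, MX1, BST2, IFI27 and EPSTI1) an ISRE and a GAS match shared bases. No ISRE match was found in the windows of DDX58, STAT2, IRF9, IRF1, OAS1, CMPK2, UBE2L6, HERC6, IFI35, SP110 and XAF1. A match is a description of letters and not a measured binding site.

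Of the 43 members, 40 were expressed. Of these, 34 (85%) lay within 1.5-fold between the libraries, close to the 79.4% of all expressed genes that did. No member was 2-fold higher in the library labelled HIPK2 shRNA, where 3.26% of the 11813 expressed genes were. A single member, BST2, was 2-fold lower, where 2.87% of expressed genes were. At 1.5-fold, 4 members (CMPK2, IFI44, HERC5 and IFIT1) were higher against 10.6% of expressed genes, and 2 members (BST2 and SP110) were lower against 9.96%.

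At any size, 24 of the 40 were higher in the library labelled HIPK2 shRNA, where 50.0% of expressed genes were, and 16 were lower. Without TMM factors 30 of the 40 were higher, because that scaling moves the median of all expressed genes to 0.0605 on the log2 scale, from 0.000232. The median log2 ratio of the members was 0.084 with TMM, with quartiles of -0.063 and 0.29. The middle of the set was narrower on its lower side than that of all expressed genes, whose quartiles were -0.29 and 0.29. The counting interval of the ratio excluded 1 for 21 members, of which 15 were higher and 6 lower, and included it for 19. Over all expressed genes it excluded 1 for 67.4%, above 1 for 32.7% and below 1 for 34.6%, so a difference beyond counting error was common at these depths and does not set the members apart.

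**Figure D1:**
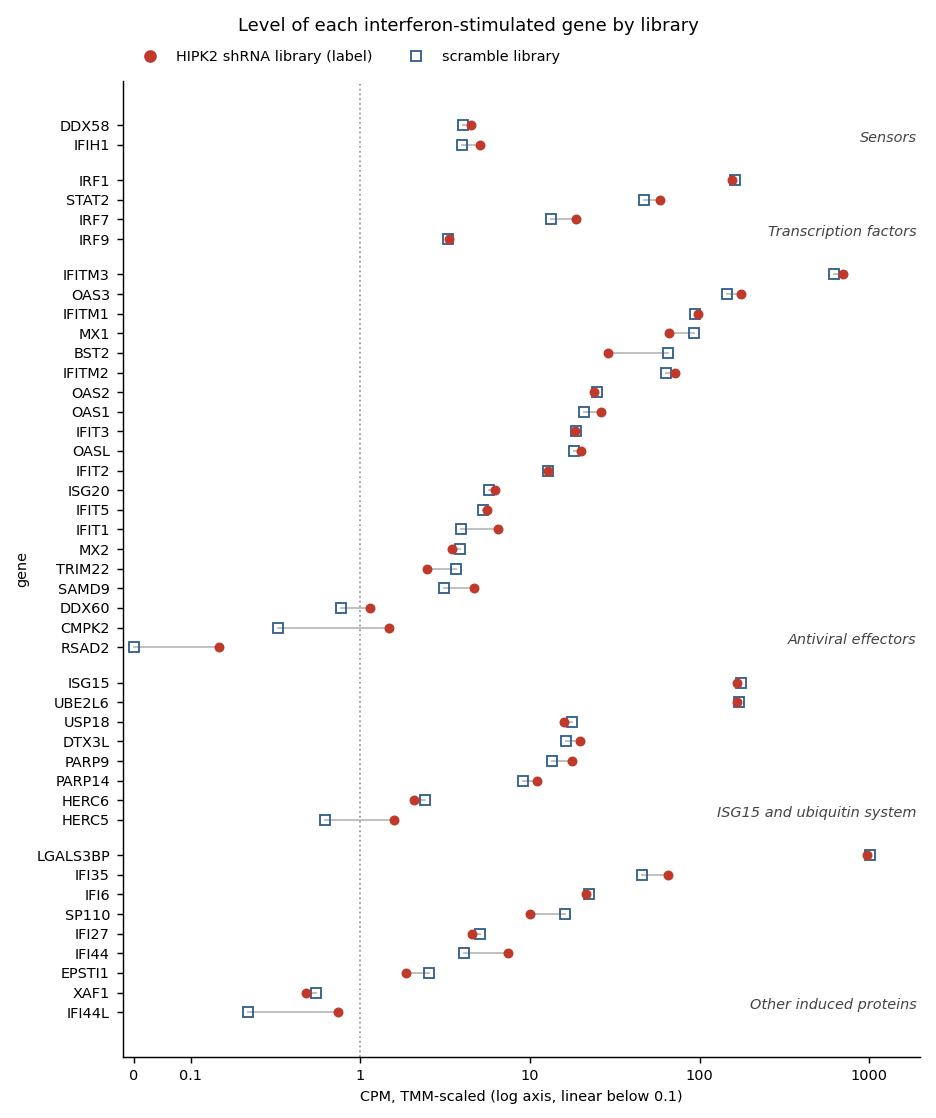
Level of each of the 43 interferon-stimulated genes in CPM (log axis, linear below 0.1), with filled circles for the library labelled HIPK2 shRNA and open squares for the scramble library, grouped by role. The dotted line marks 1 CPM, and most pairs of symbols lie close together while BST2, CMPK2, HERC5, IFI44, IFI44L and RSAD2 lie apart.

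The sensors were close to level. DDX58, which encodes the cytosolic RNA sensor RIG-I, had 122 counts in the library labelled HIPK2 shRNA and 110 in the scramble library, a ratio of 1.12 (0.862 to 1.47). IFIH1, which encodes the sensor MDA5, had 137 counts under the HIPK2 shRNA label and 109 counts under the scramble label, a ratio of 1.27 (0.984 to 1.65). Both intervals include 1, so neither sensor differed beyond counting error. Both were low genes: in the authors' TPM, DDX58 had 1.55 under the HIPK2 shRNA label and 1.29 under the scramble label, and IFIH1 had 2.75 under the HIPK2 shRNA label and 1.995 under the scramble label.

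Among the transcription factors, STAT2 and IRF7 were higher and IRF1 was level. STAT2, the ISGF3 subunit that carries the activation domain, had 1587 counts in the library labelled HIPK2 shRNA and 1281 counts in the scramble library, 1.26 times higher (1.17 to 1.35). IRF7, which amplifies the interferon response, had 507 counts under the HIPK2 shRNA label and 366 counts under the scramble label and was 1.404 times higher (1.22 to 1.61). Both ratios exceed counting error and stay below 1.5-fold. IRF1, which binds ISRE-like letters and is itself a gene that interferon-gamma induces, was the most abundant factor of the set, with 4208 counts (156 CPM, 151 to 160) in the library labelled HIPK2 shRNA and 4404 counts (161 CPM, 156 to 165) in the scramble library. Its ratio was 0.969 (0.928 to 1.01), so IRF1 (chromosome 5, 132481609 to 132490798, minus strand) did not differ beyond counting error; its log2 ratio was -0.046 with TMM and 0.094 in TPM. Of IRF1's exon bases, 22.0% are shared with C5orf56 on the opposite strand (293 counts under the HIPK2 shRNA label and 302 under the scramble label).

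IRF9, the DNA-binding subunit of ISGF3, had 90 counts in each library, but 4.22 TPM in the library labelled HIPK2 shRNA against 2.79 TPM in the scramble library. Its implied transcript length was 0.720 times as long there. A readthrough gene, AL136295.5, shares 48.4% of IRF9's exon bases on the same strand and had 508 counts in the library labelled HIPK2 shRNA against 887 in the scramble library. How reads were split between the pair is not known, so the IRF9 value is uncertain; the sum of the pair gave a ratio of 0.621 (0.560 to 0.688).

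Of the 20 antiviral effectors, 19 were expressed, and 13 of these were higher in the library labelled HIPK2 shRNA and 6 lower, with a median log2 ratio of 0.11. They include both the strongest lower ratio of the set, BST2, and the strongest higher one, CMPK2. BST2 (tetherin, chromosome 19, 17402939 to 17405648, minus strand) encodes a membrane protein that holds budding enveloped viruses at the cell surface. It had 783 counts (28.9 CPM, 26.9 to 31.04) in the library labelled HIPK2 shRNA and 1797 counts (65.5 CPM, 62.5 to 68.6) in the scramble library. That is 2.26-fold lower (2.08 to 2.47), with a log2 ratio of -1.15, and the authors' TPM showed the same direction at 42.7 in the library labelled HIPK2 shRNA and 90.1 in the scramble library. BST2 shares no exon base and no 31-base word with another gene of the table, and its implied transcript length was the same in both libraries (ratio 1.001). As these are bulk libraries, fewer cells with a gene's RNA and less RNA per cell cannot be told apart.

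CMPK2 (chromosome 2, 6840570 to 6865819, minus strand) encodes a mitochondrial nucleotide kinase and lies head to head with RSAD2, the gene of viperin, an enzyme that makes a chain-terminating nucleotide. CMPK2 had 40 counts (1.48 CPM, 1.06 to 2.01) in the library labelled HIPK2 shRNA and 9 counts (0.328 CPM, 0.150 to 0.623) in the scramble library. The ratio was 4.51 (2.15 to 10.6), while the log2 ratio with the pseudocount was 0.90; the TPM values were 0.756 under the HIPK2 shRNA label and 0.148 under the scramble label. RSAD2 was below the expression limit, with 4 counts in the library labelled HIPK2 shRNA and 0 in the scramble library. Against a floor of 3 counts (0.109 CPM) for that 0, the ratio was 1.35, which leaves out the counting error of the 4 counts. The counting intervals of its levels overlap, at 0.0403 to 0.378 CPM under the HIPK2 shRNA label and 0 to 0.134 CPM under the scramble label. RSAD2 thus did not differ clearly beyond counting error. Both genes of this pair were thus near the limit of detection in these cells.

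The IFIT genes encode proteins that bind viral RNA and block its translation, and all 4 members lie within 137 kb of chromosome 10. IFIT1 (89392546 to 89406486, plus strand) had 175 counts (6.47 CPM, 5.54 to 7.50) in the library labelled HIPK2 shRNA and 108 counts (3.94 CPM, 3.23 to 4.75) in the scramble library. It was 1.64 times higher (1.29 to 2.11), with a log2 ratio of 0.60, and had 4.84 TPM under the HIPK2 shRNA label and 2.68 TPM under the scramble label. Its neighbours did not differ beyond counting error. IFIT2 had 348 counts in the library labelled HIPK2 shRNA and 351 in the scramble library, IFIT3 had 499 counts under the HIPK2 shRNA label and 512 under the scramble label, and IFIT5 had 151 counts under the HIPK2 shRNA label and 146 under the scramble label. Their log2 ratios were 0.0068, -0.016 and 0.058, and the sign of the first pair changes with the scaling.

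The IFITM genes encode small membrane proteins that hinder virus fusion in endosomes. IFITM3 (chromosome 11, 319669 to 327537, minus strand) was the highest member per transcript length, with 1313 TPM in the library labelled HIPK2 shRNA and 1091 TPM in the scramble library, which ranked it 111 and 127 among all genes of those libraries. Its 18906 counts in the library labelled HIPK2 shRNA, against 17040 in the scramble library, corresponded to 699 CPM (689 to 709) and 621 CPM (612 to 631), which puts the ratio at 1.12 (1.102 to 1.15). IFITM2 was 1.14 times higher (1.07 to 1.22), and the ratio of IFITM1 was 1.043 (0.987 to 1.101). The 3 genes share many 31-base words (35.3% of those of IFITM1, 45.2% of IFITM2 and 36.4% of IFITM3), so their separate values are uncertain; their sum gave a ratio of 1.12 (1.096 to 1.14).

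OAS enzymes sense double-stranded RNA and make oligoadenylates, and OASL is a relative without that activity. OAS3 (chromosome 12, 112938352 to 112973249, plus strand), the most abundant by TPM of the 4, had 4738 counts in the library labelled HIPK2 shRNA and 3968 in the scramble library. Its level was 175 CPM (170 to 180) in the library labelled HIPK2 shRNA and 145 CPM (140 to 149) in the scramble library, 1.21 times higher (1.16 to 1.26), with 51.0 TPM under the HIPK2 shRNA label and 43.4 TPM under the scramble label. OAS1 had 709 counts in the library labelled HIPK2 shRNA against 572 in the scramble library, 1.26 times higher (1.12 to 1.41). OAS2, which lies beside them, had 648 counts under the HIPK2 shRNA label and 684 counts under the scramble label, a ratio of 0.960 (0.861 to 1.07), and OASL had 539 counts under the HIPK2 shRNA label and 497 under the scramble label, a ratio of 1.099 (0.971 to 1.24). Within this cluster, OAS1 and OAS3 thus differed beyond counting error and OAS2 did not; a test of the difference between them was not made.

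MX1, a dynamin-like GTPase that traps viral nucleocapsids, was lower too. It had 1783 counts (65.9 CPM) in the library labelled HIPK2 shRNA and 2548 counts (92.9 CPM) in the scramble library, which is 1.41-fold lower (1.33 to 1.498). In TPM it had 33.8 under the HIPK2 shRNA label and 51.0 under the scramble label. Its neighbour MX2 had 94 counts under the HIPK2 shRNA label and 106 under the scramble label, a ratio of 0.899 (0.674 to 1.198). TRIM22, a ubiquitin ligase that restricts retroviruses, had 67 counts in the library labelled HIPK2 shRNA and 101 counts in the scramble library, 1.49-fold lower (1.08 to 2.06), and shares 10.7% of its exon bases with OR56B1, which had 0 counts in both.

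The remaining effectors were modest. SAMD9, a cytosolic restriction factor of poxviruses, had 126 counts in the library labelled HIPK2 shRNA and 86 in the scramble library, 1.49 times higher (1.12 to 1.98). DDX60, a helicase-like protein, had 31 counts under the HIPK2 shRNA label and 21 counts under the scramble label, a ratio of 1.497 (0.833 to 2.74). ISG20, an RNA exonuclease, had 169 counts under the HIPK2 shRNA label and 157 under the scramble label, a ratio of 1.09 (0.873 to 1.37), but 10.9 TPM in the library labelled HIPK2 shRNA against 5.97 TPM in the scramble library. The implied transcript length of ISG20 was 0.639 times as long in the library labelled HIPK2 shRNA, so its TPM ratio and its count ratio describe different quantities.

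**Figure D2:**
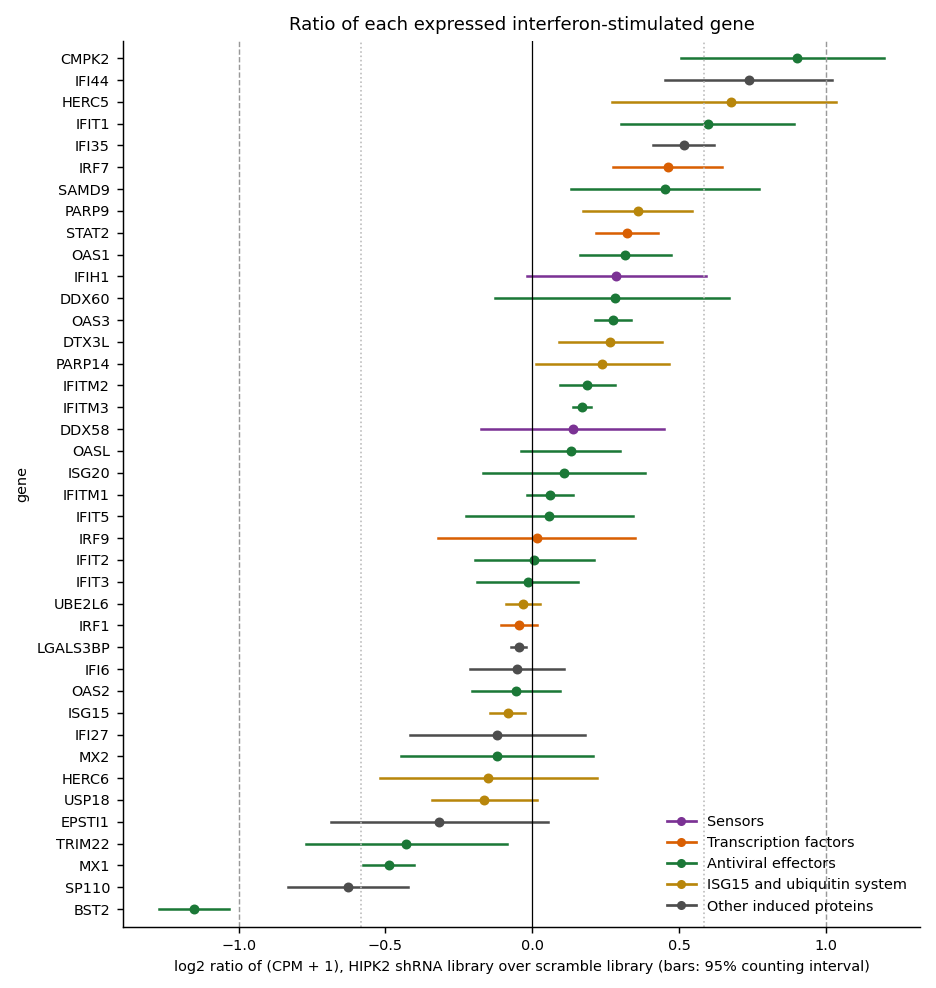
The log2 ratio of (CPM + 1), library labelled HIPK2 shRNA over scramble library, for each of the 40 expressed members, ordered by ratio and coloured by role, with 95% counting intervals as bars. Dashed lines mark 2-fold and dotted lines 1.5-fold: BST2 is the single point beyond the lower dashed line, and CMPK2 has the highest point with one of the widest intervals.

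In the ISG15 and ubiquitin group, 4 of 8 members were higher and 4 lower, with HERC5 alone past 1.5-fold. ISG15 is a ubiquitin-like protein that is joined to other proteins by the activating enzyme UBA7, the conjugating enzyme UBE2L6 and the ligase HERC5, and removed by USP18. ISG15 (chromosome 1, 1001138 to 1014541, plus strand) had 4492 counts (166 CPM, 161 to 171) in the library labelled HIPK2 shRNA and 4829 counts (176 CPM, 171 to 181) in the scramble library. Its ratio was 0.943 (0.905 to 0.982), whereas its TPM was 350.2 in the library labelled HIPK2 shRNA and 346.3 in the scramble library. The direction of so small a difference thus depends on the unit. UBE2L6 (chromosome 11, 57551656 to 57568284, minus strand) had 4488 counts (166 CPM, 161 to 171) in the library labelled HIPK2 shRNA and 4652 counts (170 CPM, 165 to 175) in the scramble library, which puts the ratio at 0.978 (0.939 to 1.02), with 184 TPM under the HIPK2 shRNA label and 176 TPM under the scramble label. At these depths both differed by less than 1.1-fold.

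HERC5 (chromosome 4, 88457117 to 88506163, plus strand) was low, with 43 counts (1.59 CPM, 1.15 to 2.14) in the library labelled HIPK2 shRNA and 17 counts (0.620 CPM, 0.361 to 0.992) in the scramble library. Its ratio was 2.56 (1.43 to 4.796), with a log2 ratio of 0.68, and its TPM values were 0.670 under the HIPK2 shRNA label and 0.247 under the scramble label. Its neighbour HERC6 had 56 counts under the HIPK2 shRNA label and 66 under the scramble label, a ratio of 0.860 (0.592 to 1.25). USP18, which also damps signalling at the interferon receptor, had 427 counts in the library labelled HIPK2 shRNA and 488 in the scramble library, a ratio of 0.887 (0.777 to 1.01). As 30.8% of USP18's 31-base words occur elsewhere, most of them in USP41, the pair was also summed, at a ratio of 0.871 (0.767 to 0.989).

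PARP9, DTX3L and PARP14 lie within 203 kb of chromosome 3, and the first pair forms a complex of a ubiquitin ligase with an ADP-ribosyltransferase. All 3 were higher in the library labelled HIPK2 shRNA. PARP9 had 478 counts there and 372 in the scramble library, 1.30 times higher (1.13 to 1.496). DTX3L had 533 counts under the HIPK2 shRNA label and 445 counts under the scramble label, 1.21 times higher (1.07 to 1.38), and PARP14 had 297 counts under the HIPK2 shRNA label and 251 under the scramble label, 1.1996 times higher (1.01 to 1.42). PARP9 and DTX3L share 217 exon bases on opposite strands.

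Of the 9 other induced proteins, 7 were expressed, 2 of these (IFI44 and IFI35) higher and 5 lower. IFI44 (chromosome 1, 78649831 to 78664078, plus strand), a cytoplasmic protein, had 202 counts (7.46 CPM, 6.47 to 8.57) in the library labelled HIPK2 shRNA and 112 counts (4.08 CPM, 3.36 to 4.91) in the scramble library. It was 1.83 times higher (1.44 to 2.32), with a log2 ratio of 0.74, and had 7.03 TPM under the HIPK2 shRNA label and 3.71 TPM under the scramble label. Its neighbour IFI44L was below the expression limit, with 20 counts in the library labelled HIPK2 shRNA and 6 in the scramble library, a ratio of 3.38 (1.31 to 10.3). Both genes of this pair were thus higher beyond counting error, at low levels.

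SP110 (chromosome 2, 230168918 to 230225729, minus strand), a nuclear body protein, had 272 counts (10.1 CPM, 8.89 to 11.3) in the library labelled HIPK2 shRNA and 441 counts (16.1 CPM, 14.6 to 17.6) in the scramble library. That is 1.60-fold lower (1.37 to 1.87), with a log2 ratio of -0.63; in TPM it had 8.22 in the library labelled HIPK2 shRNA and 11.1 in the scramble library. Its log2 ratio was -0.57 without TMM factors and -0.39 in TPM, both short of 1.5-fold. SP140, the adjacent gene of the same family, overlaps 2.5% of SP110's exon bases on the opposite strand and had 13 counts in the library labelled HIPK2 shRNA against 164 in the scramble library.

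IFI35, a protein of the cytosol, had 1773 counts (65.5 CPM) in the library labelled HIPK2 shRNA and 1250 counts (45.6 CPM) in the scramble library, 1.44 times higher (1.34 to 1.55). Its log2 ratio was 0.51 in CPM and 0.61 in TPM, which is past 1.5-fold in TPM alone. IFI6, a small mitochondrial protein, had 581 counts under the HIPK2 shRNA label and 612 counts under the scramble label, a ratio of 0.962 (0.858 to 1.08), and its relative IFI27 had 124 counts under the HIPK2 shRNA label and 139 under the scramble label, a ratio of 0.904 (0.704 to 1.16). EPSTI1 had 50 counts in the library labelled HIPK2 shRNA and 70 in the scramble library, a ratio of 0.724 (0.493 to 1.06). XAF1, a proapoptotic protein below the expression limit, had 13 counts under the HIPK2 shRNA label and 15 counts under the scramble label. None of these 4 differed beyond counting error.

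LGALS3BP (chromosome 17, 78971238 to 78980109, minus strand), a secreted glycoprotein that binds galectins, had the most counts of the set. It had 26319 counts (973 CPM, 961 to 984) in the library labelled HIPK2 shRNA and 27567 counts (1005 CPM, 993 to 1017) in the scramble library. Its ratio was 0.968 (0.952 to 0.984), but its TPM was 796 in the library labelled HIPK2 shRNA and 912 in the scramble library, with an implied length 1.19 times as long in the library labelled HIPK2 shRNA. With total-count scaling its log2 ratio was 0.019, so the direction of its CPM ratio is set by the scaling.

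Per transcript length, the basal level of the set thus spanned from IFITM3 at over 1000 TPM, through LGALS3BP, ISG15, UBE2L6, IFITM1, IFITM2 and IRF1 in both libraries, to RSAD2 at 0.0564 TPM in the library labelled HIPK2 shRNA and 0 in the scramble library. The lowest expressed members were DDX60 (0.283 TPM under the HIPK2 shRNA label and 0.171 TPM under the scramble label), HERC5 and CMPK2.

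**Figure D3:**
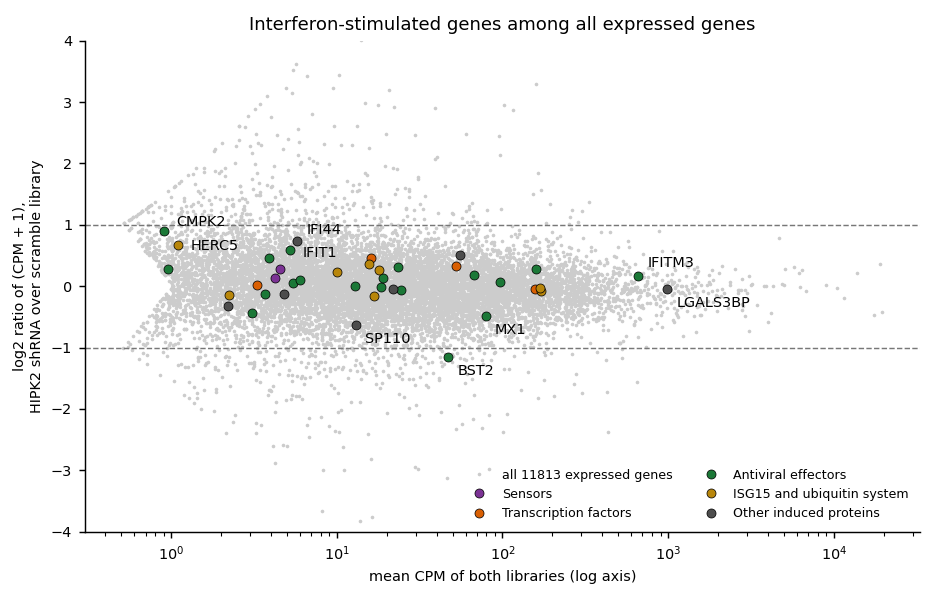
The log2 ratio of (CPM + 1), library labelled HIPK2 shRNA over scramble library, against mean CPM (log axis), for all 11813 expressed genes in grey and the 40 expressed members in colour by role, with dashed lines at 2-fold. The members lie inside the grey cloud, BST2 alone lies past a dashed line, and 7 other genes fall outside the plotted range.

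Counts and TPM were set side by side, since TPM depends on the transcript length that the authors' software assigned in each library. The implied length stayed within 10% for 35 of the 40 expressed members, against 78.8% of expressed genes with 100 counts or more in both libraries. The other 5 were IRF9, MX1, OAS3, ISG20 and LGALS3BP. The sign of the log2 ratio differed between CPM and TPM for 7 members (IRF1, IFIT3, OAS2, ISG15, UBE2L6, IFI6 and IFI27), whose CPM log2 ratios lay between -0.12 and -0.016. In TPM the members had a median log2 ratio of 0.138 over the 36 that passed 1 TPM, and all genes that passed had a median of 0.0710. In TPM, 5 members were past 1.5-fold higher (ISG20, IFI44, IFIT1, IFI35 and IRF7), and CMPK2 and HERC5 did not pass 1 TPM. No member with a CPM log2 ratio of 0.2 or more in size changed sign.

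**Figure D4:**
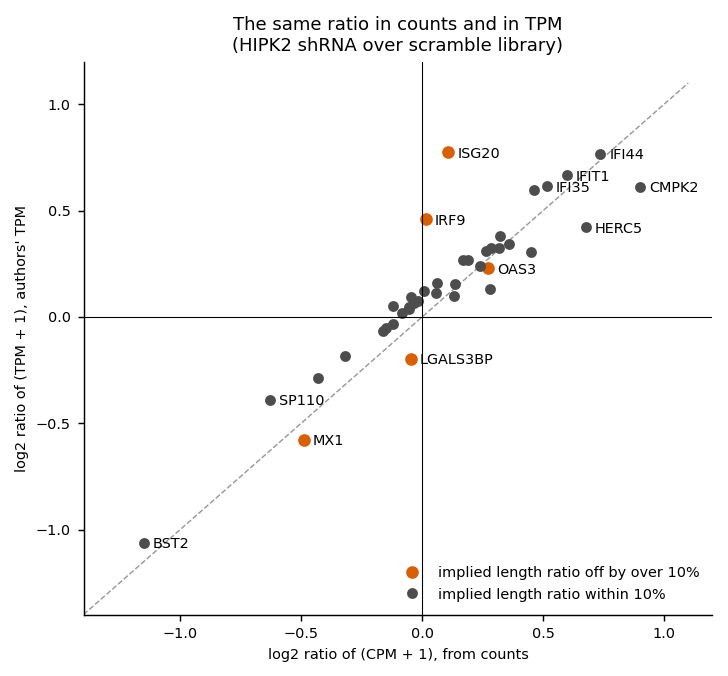
The log2 ratio in the authors' TPM (TPM + 1) against that in CPM (CPM + 1), both library labelled HIPK2 shRNA over scramble library, for the 40 expressed members, with the dashed line of equality. Orange points mark the 5 members whose implied transcript length differed by over 10%, of which ISG20 and IRF9 lie farthest above the line.

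Members that lie beside each other on a chromosome were described together. Within 250 kb there were 8 clusters that held 21 of the 43 members. In the IFITM, IFI44, CMPK2 and PARP9 clusters all members had a positive log2 ratio, and in the MX cluster both had a negative one. Of these, IFITM1, RSAD2 and MX2 did not differ clearly beyond counting error, and the separate IFITM values are uncertain. The IFIT, OAS and HERC clusters held members of both signs. Summed counts over each cluster gave ratios of 1.07 for IFIT, 1.12 for IFITM, 1.18 for OAS, 1.24 for PARP9, DTX3L and PARP14, and 0.717 for MX. The clusters with fewer counts gave 1.21 for HERC, 1.91 for IFI44 and IFI44L, and 4.96 for CMPK2 and RSAD2. The last rests on 44 counts in the library labelled HIPK2 shRNA and 9 in the scramble library.

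The ratios of members with and without ISRE letters overlapped widely. The 22 expressed members with a match had a median log2 ratio of 0.14, from -1.15 for BST2 to 0.74 for IFI44, and 14 of them were higher. The 10 expressed members without one had a median of 0.076, from -0.63 for SP110 to 0.90 for CMPK2, and 6 were higher. Of the 6 members past 1.5-fold, BST2, IFIT1, IFI44 and HERC5 hold ISRE letters and CMPK2 and SP110 do not. Members with GAS letters had a median of -0.015 (12 expressed) and those without had 0.22 (20 expressed). No test was made of either difference.

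The upstream pathway was measured in the same libraries. No interferon gene was expressed: of 22 interferon genes, 21 had 0 counts in both libraries, and IFNE, an epithelial type I interferon, had 5 counts in the library labelled HIPK2 shRNA and 0 in the scramble library. All 6 receptor chains were expressed, 5 of them lower in the library labelled HIPK2 shRNA, where 5904 of all 11813 expressed genes were. Of these 5, IFNLR1 did not differ beyond counting error, with a ratio of 0.965 (0.824 to 1.13) and a log2 ratio of 0.13 in TPM. IFNAR2 alone was past 1.5-fold. IFNAR2, the STAT-binding chain of the type I receptor, had 304 counts in the library labelled HIPK2 shRNA and 499 in the scramble library, 1.62-fold lower (1.401 to 1.87). Its value is uncertain, since 44.2% of its exon bases are shared on the same strand with a readthrough gene, AP000295.1, which had 16 counts in the library labelled HIPK2 shRNA and 20 in the scramble library. IL10RB, with a ratio of 0.846 (0.756 to 0.946), shares 38.1% of its exon bases with AP000295.1 and is uncertain too. IFNGR2 was 1.32-fold lower (1.23 to 1.41) and IFNGR1 1.196-fold lower (1.07 to 1.34).

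Of the JAK-STAT transducers outside the set, 6 of 7 were expressed and 2 were past 1.5-fold, both higher in the library labelled HIPK2 shRNA. JAK1, the kinase shared by all interferon receptors, had 1009 counts in the library labelled HIPK2 shRNA and 411 in the scramble library, 2.49 times higher (2.22 to 2.80). EP300, a histone acetyltransferase that STAT2 recruits, was 1.61 times higher (1.48 to 1.75), and TYK2, a kinase of the type I receptor, was 1.49 times higher (1.38 to 1.60). JAK2, named after its values were seen, had 22 counts in the library labelled HIPK2 shRNA and 0 in the scramble library, and stayed below 1 CPM. Against the floor of 3 counts it was 7.43-fold higher, a value that leaves out the counting error of the 22 counts.

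Of the 12 inhibitors of interferon signalling outside the set, PIAS1 alone was past 1.5-fold, with 254 counts in the library labelled HIPK2 shRNA and 162 in the scramble library, 1.59 times higher (1.30 to 1.95). As 30.3% of PIAS1's exon bases are shared with CALML4 on the opposite strand (131 counts under the HIPK2 shRNA label and 72 under the scramble label) and the strand setting is not known, that value is uncertain. The feedback inhibitor SOCS3 was 1.48-fold lower (1.37 to 1.59) and SOCS1 1.44-fold lower (1.21 to 1.73). These were the only 2 lower genes of the list. The other 10 were higher, where 50.0% of all expressed genes were, and the median log2 ratio of the list was 0.18. Of 22 expressed nucleic acid sensors and adaptors outside the set, 3 were past 1.5-fold higher and 6 lower, with a median log2 ratio of -0.13. TREX1, a DNA exonuclease, had 51 counts in the library labelled HIPK2 shRNA and 244 in the scramble library, 4.72-fold lower (3.48 to 6.51), but all of its exon bases lie within ATRIP on the same strand (163 counts under the HIPK2 shRNA label and 158 under the scramble label), so its value is uncertain. Among adaptors of antiviral signalling, TANK was 1.90-fold lower (1.47 to 2.47) and TRAF6 1.74-fold lower (1.51 to 2.01), and TMEM173, which encodes STING, was 1.72-fold lower (1.502 to 1.96). The log2 ratio of TANK was -0.76 in CPM and -0.24 in TPM. The 3 past 1.5-fold higher were TBK1, DHX58 and TLR3. TBK1 was 1.79 times higher (1.38 to 2.35) and DHX58 1.69 times higher (1.43 to 2.01). TLR3 had 29 counts in the library labelled HIPK2 shRNA and 10 in the scramble library, a ratio of 2.94 (1.39 to 6.76).

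Among enzymes of ISG15 conjugation outside the set, UBA7 alone was past 2-fold. UBA7, the activating enzyme of ISG15, had 570 counts in the library labelled HIPK2 shRNA and 245 in the scramble library, 2.36 times higher (2.03 to 2.75), while ISG15 and UBE2L6 were level. TRIM25, a ligase of RIG-I and of ISG15, was 1.26-fold lower (1.21 to 1.31), USP16 was 1.398 times higher (1.12 to 1.75), and USP41 had 31 counts in the library labelled HIPK2 shRNA and 45 in the scramble library.

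A further 51 interferon-stimulated genes outside the set were listed, of which 48 were expressed. Their median log2 ratio was 0.037, with 6 past 1.5-fold higher and 3 lower. APOL1, an apolipoprotein known for lysing trypanosomes, had 4287 counts in the library labelled HIPK2 shRNA and 972 in the scramble library, 4.47 times higher (4.17 to 4.799). HELZ2, a helicase, was 2.34 times higher (2.16 to 2.54), and BATF2, a transcription factor of the AP-1 family, was 2.81 times higher (1.98 to 4.06). DDX60L, the relative of DDX60, was 2.47-fold lower (1.69 to 3.65), and OGFR was 1.79-fold lower in CPM (1.71 to 1.88) with a log2 ratio of 0.091 in TPM. The 12 expressed genes known for the response to interferon-gamma had a median log2 ratio of -0.36. Among these, the immune checkpoint ligand CD274 (PD-L1) had 87 counts in the library labelled HIPK2 shRNA and 245 in the scramble library, 2.78-fold lower (2.17 to 3.59). APOL6 was 2.04-fold lower (1.82 to 2.28), IDO1, an enzyme of tryptophan breakdown, was 3.95-fold lower (2.06 to 8.16), and GBP2, a guanylate-binding GTPase, was 2.27 times higher (1.77 to 2.93).

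**Figure D5:**
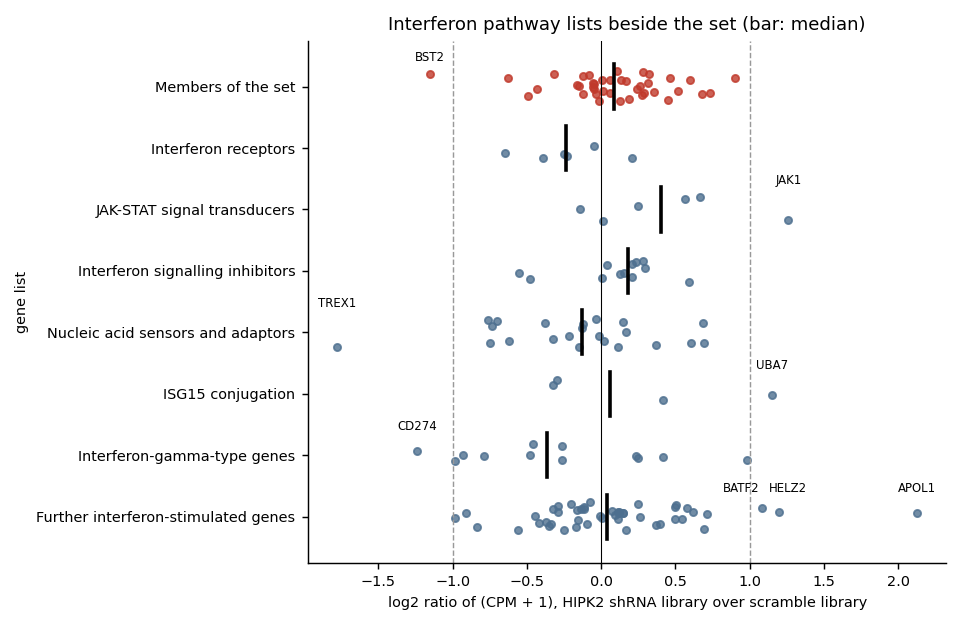
The log2 ratio of (CPM + 1), library labelled HIPK2 shRNA over scramble library, for each expressed gene of the set (red) and of 7 lists of the interferon pathway with the members left out (blue), with a black bar at each median and dashed lines at 2-fold. Genes past 2-fold are named, and the medians run from -0.36 for the genes of the interferon-gamma type to 0.40 for the JAK-STAT transducers.

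Most markers of other cells were below 1 CPM in both libraries, but some, such as CDH5 and CD68, were not. Of 15 leukocyte markers, which would bring their own interferon-stimulated genes, 10 had 0 counts in both libraries, among them PTPRC and CD3E. The list summed, mostly through CD68 and CSF1R, to 34.7 CPM in the library labelled HIPK2 shRNA and 38.3 CPM in the scramble library. CD14 (88 counts under the HIPK2 shRNA label and 136 under the scramble label) and ITGAM (55 and 43 counts) were expressed too. The fibroblast list summed to 22.0 CPM under the HIPK2 shRNA label and 18.7 CPM under the scramble label. Of its 10 genes, COL1A1, COL1A2 and PDGFRB were expressed, and DCN and PDGFRA were among those at 0 in both. COL1A1 had 12.7 CPM under the HIPK2 shRNA label and 9.59 CPM under the scramble label. The endothelial list summed to 28.6 CPM under the HIPK2 shRNA label and 56.3 CPM under the scramble label, nearly all from CDH5, with PECAM1 and KDR at 0 in both. All 10 squamous markers were expressed, summing to 4009 CPM in the library labelled HIPK2 shRNA and 4675 CPM in the scramble library, but the library labelled HIPK2 shRNA had KRT14 at a level 7.13-fold lower (5.19 to 10.0) and CDH1 at a level 2.11-fold lower (2.01 to 2.22). Their part in the ratios of the members was not tested.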

How the data were processed

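RNA-seq of 2 Cal-27 cultures was used, with 1 library per group. Libraries were sequenced as paired-end 150 bp reads, per the labels' protocols. The submitters' processing notes name FastQC, TopHat2 2.1.1 and the GRCh38 build. The sources used here do not give the counting tool, its annotation, its strand setting or its handling of multiply matching reads. Per the file headers, the authors deposited counts with TPM and FPKM for 20263 genes. The deposited counts are whole numbers and were not normalized. The authors' TPM sums to 999989.3 in the library labelled HIPK2 shRNA and 999991.3 in the scramble library. The authors' FPKM served to work out the transcript length that count and FPKM imply, set against the median gene with 100 counts or more in both libraries.

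Counts were scaled to CPM by TMM (edgeR 4.0.16, R 4.3.3; factors 1.02 for the library labelled HIPK2 shRNA and 0.977 for the scramble library). No statistical test was run between the libraries. The size rules are 2-fold and 1.5-fold on log2 (CPM + 1). Ratio intervals are 95% Clopper-Pearson intervals conditional on both counts and level intervals are exact Poisson, from scipy 1.17.1. All cover counting error only, since 1 library per group gives no spread between cultures. PCR copies of 1 molecule could not be told apart, so the intervals may also be too narrow for counting error. A count of 0 allows up to 3 counts, and ratios against that floor leave out the counting error of the other count. Shared exons and 31-base words came from GENCODE 29, in which all 43 members were found, 33 with identical start and end.

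The members, their 5 roles and the 14 lists were chosen with earlier results of these data known. Full values are given for expressed members past 1.5-fold and for the 6 of highest mean CPM, and the other members are given by value within their role. Of the other lists, genes past 2-fold and up to 3 more with the largest absolute log2 ratio are named. A few further genes are named to show the other direction or a limit. Some genes of these lists are not reported here. The alternatives tried were 3 other scalings, pseudocounts of 0.1 and 5, no filter, a filter at 10 CPM, the authors' TPM, and leaving out members that share exons.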

Additional observations from a re-analysis of the deposited data

How the results depend on the processing

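BST2 was 2-fold lower, and the single member so, under each of the 9 alternatives. The median log2 ratio of the members, 0.084 in the report, was 0.14 with total-count CPM, 0.15 with upper-quartile factors, 0.073 with RLE factors, 0.095 with a pseudocount of 0.1, 0.063 with a pseudocount of 5, 0.11 with no filter, 0.033 with a filter at 10 CPM, 0.14 in TPM and 0.12 without members sharing exons; no error of this median can be had from 1 library per group. Members past 1.5-fold lower numbered 1 in place of 2 (BST2 without SP110) with total-count CPM, upper-quartile factors, a pseudocount of 5, the authors' TPM and without members sharing exons. Members past 2-fold higher numbered 2 in place of 0 with a pseudocount of 0.1 (CMPK2 and HERC5, both near 1 CPM). Members past 1.5-fold higher numbered 0 in place of 4 with a pseudocount of 5 and with a filter at 10 CPM, since all 4 lie below 10 CPM. Higher at any size were 13 of 24 members with that filter, where 3450 of all 7589 genes were, with a median of -0.046. With total-count or upper-quartile scaling 30 of 40 members were higher, and in TPM 28 of 36. Among genes expressed by CPM, 31 of 40 members and 6833 of all 11813 genes were higher in TPM. For total-count and upper-quartile scaling the share of all genes was not taken, and those scalings move all genes upward. The median of all expressed genes was 0.0605 with total-count scaling, 0.0654 with upper-quartile scaling and 0.0710 in TPM. Of 258 values of single members under alternatives, 228 stayed close to the main value. Close means within its counting interval, or within 0.1 for RSAD2, which has no interval. There were 20 changes of sign, in 9 members whose log2 ratio was below 0.2 in size. The log2 ratio of HIPK2, 0.85 in CPM, was -0.49 in TPM; its implied transcript length differed between the libraries. No paired analysis was possible because there was 1 library per group. Depth limits CMPK2, DDX60, HERC5, IFI44L, RSAD2 and XAF1, with under 50 counts in each library.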

Other observations

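Several APOL genes respond to interferon. On chromosome 22, APOL1 to APOL4 lie between 36140330 and 36267530, and APOL5 and APOL6 lie apart from them, between 35648395 and 35729483. APOL1 and APOL6, which are not neighbours, differed beyond counting error in these libraries, with opposite signs. APOL1 had 158 CPM in the library labelled HIPK2 shRNA and 35.4 CPM in the scramble library, a log2 ratio of 2.13, and 2.12 in the authors' TPM. APOL2 had 2497 counts in the library labelled HIPK2 shRNA and 2669 in the scramble library, a ratio of 0.948 (0.898 to 1.002), and APOL3 had 165 counts under the HIPK2 shRNA label and 164 under the scramble label. APOL6 had 469 counts in the library labelled HIPK2 shRNA and 969 in the scramble library, and APOL4 and APOL5 had 0 in both. These genes were named after their values were seen.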
